A study of Chlamydomonas reinhardtii with 12 samples.

Results

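The photosystem I antenna genes LHCA1 to LHCA9 of the green alga Chlamydomonas reinhardtii were followed in wild-type and vip1-1 cells under high light and control light. The 9 genes were taken by a list of identifiers from a table of 17693 genes and not by a cut on their expression values. Earlier results of these data were known when the list was chosen. All 9 passed the filter on low values described below, and none was listed at 0 in any library. The reference table used here lists each of these 9 loci but holds no gene symbols, so the LHCA names rest on the list of identifiers and were not checked against an annotation.

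Each LHCA gene is in the nucleus and encodes a chlorophyll-binding protein of the chloroplast that passes absorbed light energy to the reaction centre of photosystem I. In structures of the algal complex the LHCA proteins sit in an inner and an outer belt along one face of the core, and a further pair sits on another side. LHCA1 (Cre06.g283050_4532.v6.1), LHCA8 (Cre06.g272650_4532.v6.1), LHCA7 (Cre16.g687900_4532.v6.1) and LHCA3 (Cre11.g467573_4532.v6.1) form the inner belt. The outer belt has a further copy of LHCA1 together with LHCA4 (Cre10.g452050_4532.v6.1), LHCA6 (Cre06.g278213_4532.v6.1) and LHCA5 (Cre10.g425900_4532.v6.1). The pair outside the belts is LHCA2 (Cre12.g508750_4532.v6.1) and LHCA9 (Cre07.g344950_4532.v6.1), which are missing from some isolated forms of the complex. Algae moved to strong light generally lower the amount of their antenna.

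The series asked what part inositol pyrophosphates, signalling molecules that carry a diphosphate group on an inositol ring, play in the response to high light. Poly(A) RNA was sequenced from 4 groups of 3 biological replicates: vip1-1 in high light, vip1-1 in control light, wild-type in high light and wild-type in control light. Per the labels all cells are CC-1690, were kept in liquid TAP medium, which contains acetate, at 25 ºC, and received 1500 µmol m-2 s-1 in high light or 50 µmol m-2 s-1 in control light. vip1-1 is described as a strain deficient in inositol pyrophosphates. It is a single mutant strain, and no complemented strain is among the samples, so an effect of the mutation and of any other difference between the strains cannot be told apart. The duration of the high light is not given in the sources used here, and the mutated gene could not be checked, because no table used here names it.

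Levels are FPKM, fragments per kilobase of transcript scaled to the mapped fragments of the library, which allows genes of different length to be compared. The FPKM total of a library was 651369 to 674168 in wild-type high light and 741086 to 754563 in wild-type control. In vip1-1 it was 681002 to 716974 in high light and 762497 to 767459 in control. Totals were thus lower in high light than in control in each strain without overlap, and read depth is unknown. Within groups the Pearson correlation of log2(FPKM + 1) across tested genes, which are not independent replicates, was 0.934 to 0.956 in vip1-1 high light and 0.977 to 0.988 in vip1-1 control. In the wild-type it was 0.931 to 0.972 in high light and 0.973 to 0.987 in control. FPKM is relative to the RNA of each library, so less LHCA transcript per cell and more of other RNA cannot be told apart.

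The LHCA genes were among the most abundant transcripts. By mean FPKM over the 12 libraries LHCA8 was rank 97 of 17693 genes, and the lowest member, LHCA9, was rank 308. Together the 9 genes held 1.44% ± 0.17 of the FPKM total in vip1-1 high light and 1.84% ± 0.11 in vip1-1 control (SD, n = 3). In the wild-type they held 0.74% ± 0.33 in high light and 1.32% ± 0.14 in control (SD, n = 3). The summed level was 10636, 11143 and 8550.0 FPKM in vip1-1 high light replicates 1, 2 and 3, against 14129, 14858 and 13343 FPKM in vip1-1 control. In wild-type high light it was 4943, 7135 and 2628 FPKM, against 8855, 9820.2 and 10961 FPKM in wild-type control. High light libraries were thus below the control libraries of the same strain without overlap, and 2 of the 3 vip1-1 high light libraries lay within or above the range of wild-type control, with the remaining one just under it.

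The order of levels among the members was similar at its lower end and differed at its upper end. LHCA6, LHCA3 and LHCA9 held ranks 7, 8 and 9 in each of the 4 groups. LHCA8, of the inner belt, had the highest mean in vip1-1 control, wild-type high light and wild-type control, and was rank 2 in vip1-1 high light. LHCA4, of the outer belt, was rank 1 in vip1-1 high light and rank 2 in vip1-1 control, but rank 6 in wild-type high light and rank 5 in wild-type control. Most neighbours in these orders overlapped in their library values. In vip1-1 high light the only gaps between neighbours were those between LHCA5 and LHCA7, between LHCA6 and LHCA3, and between LHCA3 and LHCA9. In vip1-1 control the gaps lay between LHCA8 and LHCA4 and between LHCA6 and LHCA3. The first was negligible, with a lowest LHCA8 value of 2476 and a highest LHCA4 value of 2475 FPKM. For the second these values were 927 FPKM (LHCA6) and 373 FPKM (LHCA3). In wild-type high light the single gap was above LHCA9, and in wild-type control it was between LHCA2 and LHCA6.

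**Figure D1:**
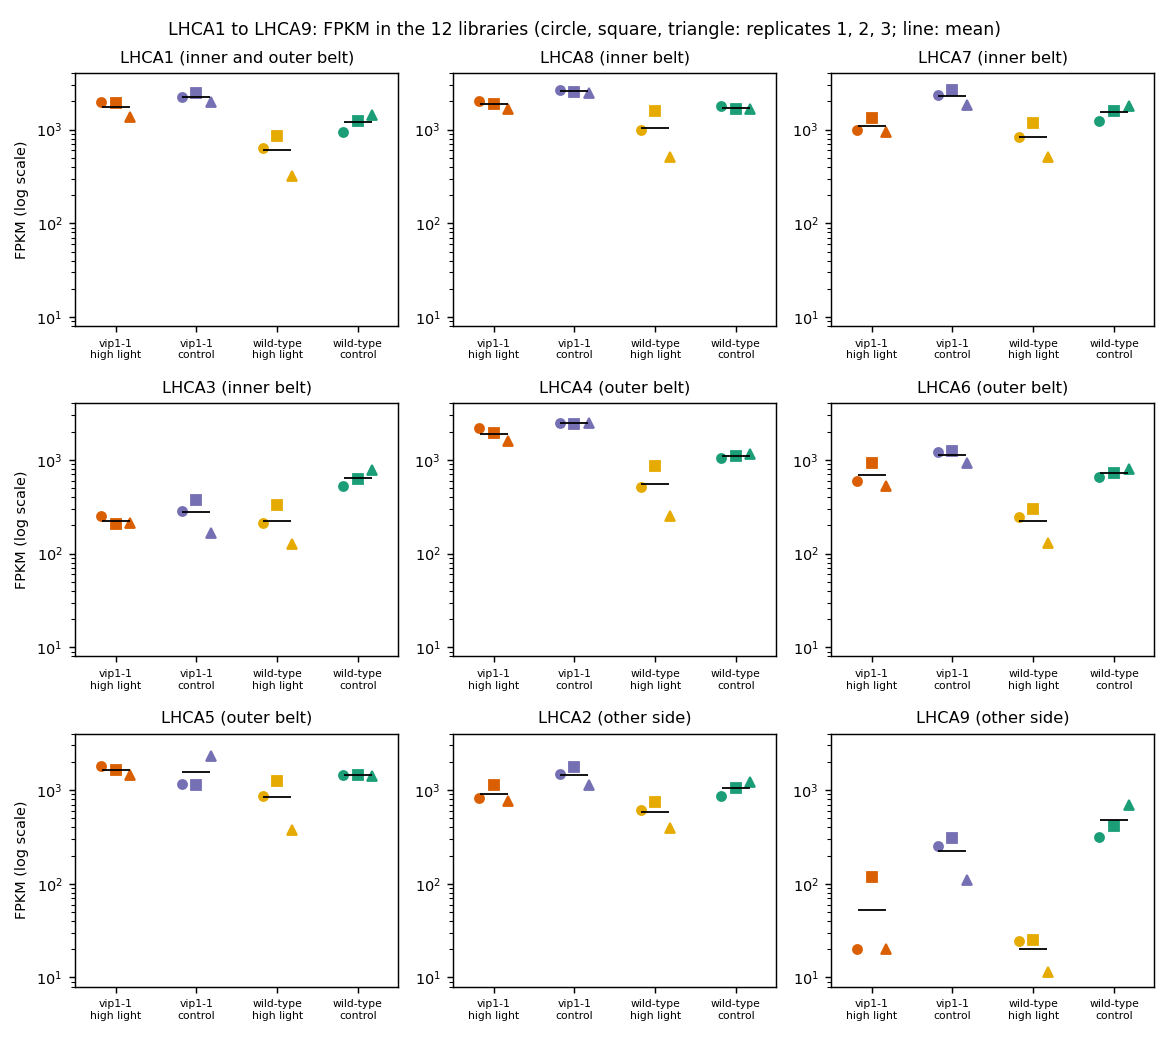
FPKM (log axis) of each LHCA gene in every library, with groups from left to right vip1-1 high light, vip1-1 control, wild-type high light and wild-type control, replicates as circle, square and triangle, and the group mean as a line. All 9 genes lay lower in wild-type high light than in wild-type control without overlap, and LHCA9 spanned the widest range, with a lowest value of 11.6 and a highest of 699 FPKM.

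The comparison of high light with control light in the wild-type asked how the antenna transcripts respond to the stress. All 9 genes were lower in high light in every library than in any control library, as were 16.8% of the 12575 genes tested. Of the 9, 8 fell past the threshold of an adjusted p under 0.05 (limma, Benjamini-Hochberg over all tested genes), where 58.4% of the tested genes passed in either direction and 13.7% passed as lower. The exception was LHCA5. The median log2 change of the 9 genes was -1.09, while that of all tested genes was 0.39.

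Among the proteins of the inner belt, LHCA1 had 632, 848 and 318 FPKM in high light replicates 1, 2 and 3, against 941, 1239.6 and 1426 FPKM in control. LHCA8 had 996, 1588 and 511 FPKM in high light, against 1786, 1653 and 1681 FPKM in control. In both genes replicate 3 was the lowest and replicate 2 the highest high light library, and replicate 2 of LHCA8 came close to the control range. The log2 change was -1.09 (SE 0.31, adjusted p 0.0119 in limma) for LHCA1 and -0.87 (SE 0.31, adjusted p 0.0301 in limma) for LHCA8. LHCA7 had 844, 1165 and 515 FPKM in high light, against 1243, 1574 and 1805 FPKM in control, with a log2 change of -0.93 (SE 0.28, adjusted p 0.0145 in limma). LHCA3, a protein known to be processed at its N terminus when iron is short, had 209.8, 331 and 125 FPKM in high light, against 521, 627 and 785 FPKM in control. Its highest high light value was well under its lowest control value, and its log2 change of -1.62 (SE 0.36, adjusted p 0.00285 in limma) was the most negative of the inner belt.

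Among the proteins of the outer belt, LHCA4 had 517, 869.6 and 254 FPKM in high light, against 1052, 1102 and 1142 FPKM in control, a log2 change of -1.18 (SE 0.33, adjusted p 0.0114 in limma). LHCA6 had 244, 302 and 129 FPKM in high light, against 657, 725 and 808 FPKM in control. Here every high light library was under every control library by a wide margin, and the log2 change of -1.77 (SE 0.30, adjusted p 0.000615 in limma) was the second most negative of the 9. LHCA5 had 871, 1262 and 373 FPKM in high light, against 1464, 1436 and 1404 FPKM in control. Its control libraries were close together while its high light libraries spread 3.38-fold, and its log2 change of -0.95 (95% interval -1.81 to -0.08, limma adjusted p 0.0576) did not pass the threshold.

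The pair outside the belts had changes of very different size, with 95% intervals of the log2 change of -1.45 to -0.32 for LHCA2 and -5.94 to -3.03 for LHCA9. LHCA2 had 605, 744 and 391 FPKM in high light, against 871, 1049.7 and 1211 FPKM in control, a log2 change of -0.88 (SE 0.26, adjusted p 0.0128 in limma). LHCA9 had 24.3, 25.0 and 11.6 FPKM in high light, against 319, 413 and 699 FPKM in control. Its mean in high light was 4.25% of its mean in control. The log2 change of LHCA9 was -4.49 (SE 0.66, adjusted p 0.000258 in limma), and only 8 of the 12575 tested genes had a more negative one.

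The size of these falls varied with the library. Wild-type high light replicate 3 was the lowest of its group in 9 of 9 LHCA genes, at 0.35 to 0.58 times the mean of the other replicates, and replicate 2 was the highest in 9 of 9. Over all tested genes replicate 3 was the lowest in 21.5% and replicate 2 the highest in 23.5%. Replicate 2 also had the most genes listed at 0 of this group (3289, against 2559 and 2836 in the other libraries), and the part of this in the LHCA values was not tested. Without wild-type control replicate 3 the changes of LHCA7 and LHCA2 missed the threshold (limma adjusted p 0.0578 and 0.0521). That of LHCA8 missed it without any one of wild-type control replicates 1, 2 and 3 or wild-type high light replicates 1 and 3 (limma adjusted p 0.0540 to 0.0724). Without wild-type high light replicate 3 the median log2 change of the 9 genes was -0.69 and that of LHCA8 was -0.44. The change of LHCA8 also missed the threshold after rescaling to equal FPKM totals and in a fit of the wild-type libraries alone (0.0617 and 0.0918). LHCA5 passed as lower without wild-type high light replicate 2 or vip1-1 control replicate 3 (limma adjusted p 0.0110 and 0.0416). Under quantile normalization all 9 changes remained negative, but only those of LHCA3, LHCA6 and LHCA9 passed.

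In vip1-1 high light lowered LHCA7 and LHCA9 past the threshold, and the other 7 genes were not past an adjusted p of 0.05 (limma), where 41.5% of all tested genes passed in either direction and 4.09% passed as lower. The 9 genes had a median log2 change of -0.46, against 0.38 for all tested genes. LHCA8, LHCA7, LHCA4 and LHCA2 were lower in every high light library than in any control library, as were 5.77% of tested genes.

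For the inner belt, LHCA1 had 1963, 1914 and 1351 FPKM in vip1-1 high light replicates 1, 2 and 3, against 2231, 2442 and 1956 FPKM in vip1-1 control. The groups overlapped only between the highest high light and the lowest control library, and the log2 change was -0.36 (95% interval -1.05 to 0.33, limma adjusted p 0.374). LHCA8 had 2014, 1885 and 1676 FPKM in high light, against 2672, 2517 and 2476 FPKM in control, a log2 change of -0.46 (95% interval -1.14 to 0.21, limma adjusted p 0.239). LHCA7 had 989, 1342 and 955 FPKM in high light, against 2352, 2623 and 1810.4 FPKM in control. The log2 change of LHCA7, -1.05 (SE 0.28, adjusted p 0.0143 in limma), passed the threshold. LHCA3 had 249.6, 206 and 210.1 FPKM in high light, against 285, 373 and 165 FPKM in control. It was low in both light levels and the groups overlapped, with a log2 change of -0.23 (95% interval -1.02 to 0.56, limma adjusted p 0.618).

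For the outer belt, LHCA4 had 2161, 1956 and 1603 FPKM in vip1-1 high light, against 2475, 2426 and 2447 FPKM in vip1-1 control, a log2 change of -0.37 (95% interval -1.11 to 0.36, limma adjusted p 0.384). LHCA6 had 599, 937 and 523 FPKM in high light, against 1212, 1246 and 927 FPKM in control, a log2 change of -0.75 (95% interval -1.42 to -0.09, limma adjusted p 0.0664). The highest high light value of LHCA6 was above its lowest control value. LHCA5 had 1818, 1654 and 1455 FPKM in high light, against 1166, 1143 and 2316 FPKM in control. Its control replicate 3 was 2.01 times the mean of the other control libraries, so its control values fell on both sides of the high light values. In that library 7 of the 9 LHCA genes were at their lowest of the group, as were 31.8% of all tested genes. LHCA5 had a log2 change of 0.17 (95% interval -0.70 to 1.03, limma adjusted p 0.748).

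For the pair outside the belts, LHCA2 had 823, 1133 and 757 FPKM in vip1-1 high light, against 1482, 1777 and 1137 FPKM in vip1-1 control. The groups did not overlap, but the log2 change of -0.69 (95% interval -1.26 to -0.13, limma adjusted p 0.0503) was just outside the threshold. LHCA9 had 20.1, 117 and 20.3 FPKM in high light, against 253, 310.2 and 109 FPKM in control. High light replicates 1 and 3 were in the range of wild-type high light, whereas replicate 2 was as high as control replicate 3. The log2 change of LHCA9 was -2.45 (SE 0.66, adjusted p 0.0147 in limma), and 20 tested genes had a more negative one.

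Both calls in vip1-1 depended on single libraries. The change of LHCA7 missed the threshold without vip1-1 control replicate 2 (limma adjusted p 0.0583), and that of LHCA9 without vip1-1 control replicate 1, vip1-1 control replicate 2 or vip1-1 high light replicate 3 (limma adjusted p 0.0511, 0.0604 and 0.0556) and in a fit of the vip1-1 libraries alone (0.0522), where LHCA8 passed as lower (0.0199). LHCA2 and LHCA6 passed as lower without vip1-1 high light replicate 2 (limma adjusted p 0.0337 and 0.0301), without wild-type high light replicate 2 (0.0337 and 0.0425) or without wild-type high light replicate 3 (0.0249 and 0.0207), and LHCA2 also without vip1-1 control replicate 3 (0.0380). LHCA8 also passed without wild-type high light replicate 3 (limma adjusted p 0.0353). Median centring of the libraries likewise brought LHCA2 and LHCA6 past the threshold as lower (limma adjusted p 0.0272 and 0.0364). So did a filter at a mean FPKM of 5 and a pseudocount of 0.1 for LHCA2 (0.0459 and 0.04999). Under quantile normalization the median log2 change of the 9 genes was -0.13, and the changes of LHCA1 and LHCA4, not past the threshold in either analysis, were 0.09 and 0.10.

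**Figure D2:**
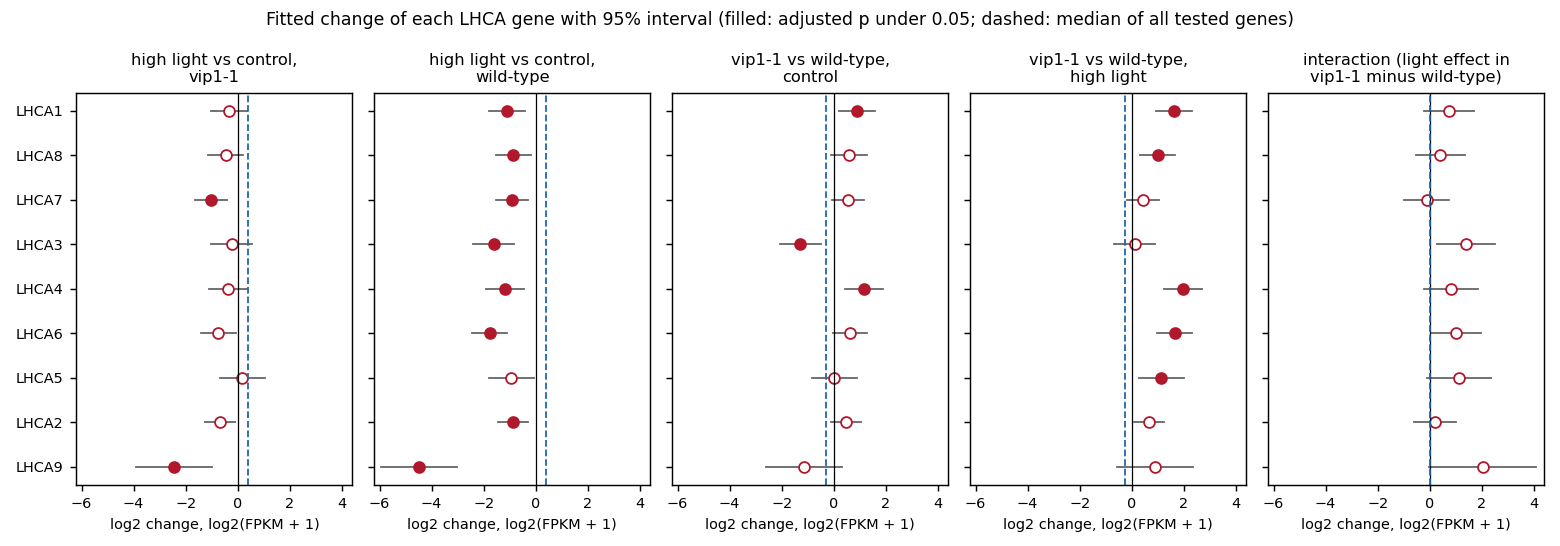
Fitted log2 change of each LHCA gene on the log2(FPKM + 1) scale with its 95% interval, in 5 panels for the light effect in vip1-1 and in wild-type, the difference of vip1-1 from wild-type in control and in high light, and the interaction. Filled points have a limma adjusted p under 0.05 and the dashed line is the median of all tested genes, which was 0.38, 0.39, -0.29, -0.28 and 0.00 in these panels.

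The strains were compared in control light to see whether the antenna transcripts differed without high light. LHCA1 and LHCA4 were higher and LHCA3 was lower in vip1-1 past the threshold, and the other 6 genes did not pass (limma). Over all tested genes 32.4% passed in either direction, 6.39% as higher and 26.0% as lower. The 9 genes had a median log2 difference of 0.55, against -0.29 for all tested genes. Library values did not overlap for LHCA1, LHCA8, LHCA7, LHCA4 and LHCA6, which were higher in vip1-1 (14.9% of tested genes were), nor for LHCA3 and LHCA9, which were lower (48.1% of tested genes were).

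LHCA4 had the most positive difference in control light, at 2449 ± 24.6 FPKM in vip1-1 control and 1099 ± 44.8 FPKM in wild-type control (SD, n = 3 each), a log2 difference of 1.16 (SE 0.33, adjusted p 0.0229 in limma). LHCA1 averaged 2209.5 ± 244 FPKM in vip1-1 and 1202 ± 245 FPKM in wild-type (SD, n = 3 each), a log2 difference of 0.89 (SE 0.31, adjusted p 0.0497 in limma). LHCA3 went the other way, at 274 ± 105 FPKM in vip1-1 and 644 ± 133 FPKM in wild-type (SD, n = 3 each), a log2 difference of -1.29 (SE 0.36, adjusted p 0.0191 in limma). The mean of LHCA3 in vip1-1 control was 42.6% of its wild-type mean, although its neighbours in the inner belt were at 184% (LHCA1), 150% (LHCA8, limma adjusted p 0.168) and 147% (LHCA7, limma adjusted p 0.151). LHCA9 averaged 224 ± 104 FPKM in vip1-1 and 477 ± 198 FPKM in wild-type (SD, n = 3 each), a log2 difference of -1.14 with a 95% interval of -2.59 to 0.31 (limma adjusted p 0.208). LHCA6, LHCA2 and LHCA5 had log2 differences of 0.62, 0.48 and 0.02, none past the threshold (limma adjusted p 0.137, 0.178 and 0.974).

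Whether these calls passed depended on the libraries in the fit. The difference of LHCA1 missed it under 15 of 21 alternative analyses, among them those without any one of the 6 control libraries, without vip1-1 high light replicate 1 or 2, or without wild-type high light replicate 1 (limma adjusted p 0.0517 to 0.153 in these 9). That of LHCA4 missed it without any one of the 6 control libraries (0.0545 to 0.0635). The difference of LHCA3 missed it without vip1-1 control replicate 3, wild-type control replicate 2 or wild-type control replicate 3 (0.0718, 0.0540 and 0.0694), and after median centring of the libraries (log2 difference -0.94, limma adjusted p 0.117). In a fit of the 6 control libraries alone, LHCA1 (limma adjusted p 0.00455), LHCA4 and LHCA3 still passed. In that fit LHCA8, LHCA7 and LHCA6 also passed as higher in vip1-1 (limma adjusted p 0.000592, 0.0390 and 0.00887). Over the 21 alternatives the limma adjusted p of LHCA4 ran from 6.49e-05 to 0.0757. With all groups in the fit, LHCA8 passed without wild-type high light replicate 2 or 3 (0.0436 and 0.0168) and LHCA6 without wild-type high light replicate 3 (0.0496). Under quantile normalization LHCA3 alone passed.

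In high light 5 genes were higher in vip1-1 past the threshold, LHCA1, LHCA8, LHCA4, LHCA6 and LHCA5, and none was lower (limma). Of all tested genes 46.4% passed in either direction, 12.1% as higher and 34.4% as lower. The 9 genes had a median log2 difference of 0.99, against -0.28 for all tested genes, and every fitted difference was positive. Among all alternatives run, that of LHCA7 was negative under quantile normalization (-0.13) and that of LHCA3 without wild-type high light replicate 3 (-0.25). Leaving out that library moved the median of the 9 genes to 0.56. Library values of LHCA1, LHCA8, LHCA4, LHCA6, LHCA5 and LHCA2 did not overlap between the strains, with vip1-1 higher, as in 12.8% of tested genes.

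LHCA4 again differed most, with 1907 ± 282 FPKM in vip1-1 high light and 547 ± 309 FPKM in wild-type high light (SD, n = 3 each), a log2 difference of 1.96 (SE 0.33, adjusted p 0.000897 in limma). Its mean in vip1-1 high light was also above each wild-type control library, the highest of which had 1142 FPKM. LHCA6 averaged 686 ± 220.3 FPKM in vip1-1 and 225 ± 88.0 FPKM in wild-type (SD, n = 3 each), a log2 difference of 1.64 (SE 0.30, adjusted p 0.00137 in limma). LHCA1 averaged 1743 ± 339.9 FPKM in vip1-1 and 599.7 ± 266 FPKM in wild-type (SD, n = 3 each), a log2 difference of 1.63 (SE 0.31, adjusted p 0.00180 in limma). LHCA5 and LHCA8 had log2 differences of 1.14 (SE 0.39, adjusted p 0.0345 in limma) and 0.99 (SE 0.31, adjusted p 0.0212 in limma).

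The remaining genes were not past the threshold in high light. LHCA3 had nearly the same mean in both strains, 222 ± 24.1 FPKM in vip1-1 and 222 ± 103 FPKM in wild-type (SD, n = 3 each), with a 95% interval of the log2 difference of -0.68 to 0.89 (limma adjusted p 0.834). LHCA2 had a log2 difference of 0.67 (95% interval 0.10 to 1.23, limma adjusted p 0.0537) and LHCA7 one of 0.44 (95% interval -0.17 to 1.05, limma adjusted p 0.219). LHCA9 averaged 52.4 ± 55.8 FPKM in vip1-1 and 20.3 ± 7.55 FPKM in wild-type (SD, n = 3 each), and its values overlapped (log2 difference 0.89, 95% interval -0.56 to 2.34, limma adjusted p 0.291). The log2 difference of LHCA9 was 0.07 when vip1-1 high light replicate 2, the library at 117 FPKM, was left out.

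Part of these calls also rested on single libraries. LHCA5 missed the threshold without any one of vip1-1 high light replicates 1, 2 and 3 or wild-type high light replicates 1 and 3 (limma adjusted p 0.0511 to 0.101), with a log2 difference of 0.64 without wild-type high light replicate 3. LHCA8 missed it without vip1-1 high light replicate 1 (limma adjusted p 0.0578). LHCA2 passed as higher without vip1-1 high light replicate 3 or wild-type high light replicate 2 (0.0488 and 0.0187), and LHCA7 without wild-type high light replicate 2 (0.0414). In a fit of the 6 high light libraries alone LHCA1, LHCA4 and LHCA6 passed, whereas LHCA8 and LHCA5 did not (0.105 and 0.0926), nor did they under quantile normalization (0.149 and 0.199).

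**Figure D3:**
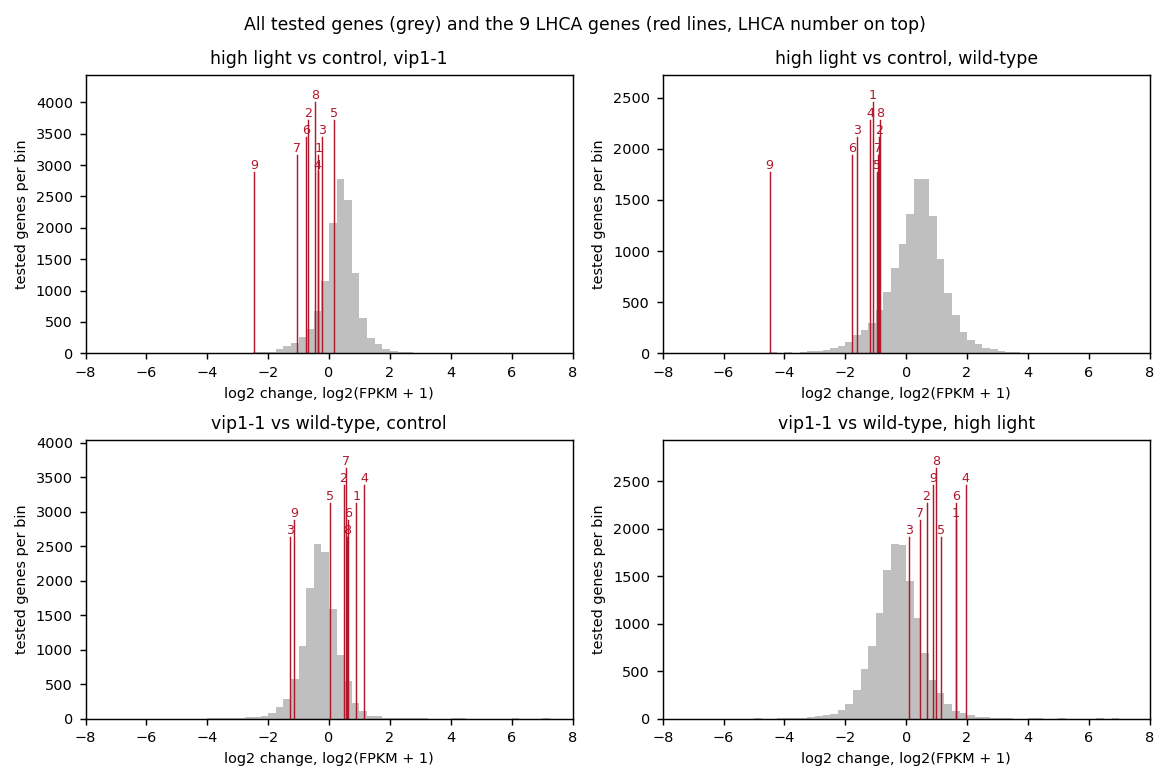
Number of tested genes (grey bars, bins of 0.25) by log2 change on the log2(FPKM + 1) scale for the light effect in vip1-1 and wild-type (top) and for vip1-1 against wild-type in control and high light (bottom), with each LHCA gene as a red line carrying its number. The 9 genes lay left of the median of all tested genes for the light effect in wild-type, and LHCA4 lay furthest right among the 9 in both strain comparisons, at 1.16 in control and 1.96 in high light.

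The interaction subtracts the log2 change in wild-type from that in vip1-1 and so tests whether the fall differed between the strains. It passed for 0 of the 9 genes at an adjusted p under 0.05 (limma), and for 8.71% of all tested genes. At an unadjusted p under 0.05 it did so for LHCA3 and LHCA6. The share of all tested genes at that level was not computed, so nothing about the family can be read from this. Fitted interactions were positive for 8 genes and negative for LHCA7, with a median of 0.80 over the 9 genes and 0.00 over all tested genes. LHCA9 had the most positive value, 2.03, with a 95% interval of -0.02 to 4.08 (limma adjusted p 0.200). That of LHCA3 was 1.39 (95% interval 0.28 to 2.50, limma adjusted p 0.115) and that of LHCA6 1.02 (95% interval 0.08 to 1.96, limma adjusted p 0.164). For LHCA7 it was -0.11 (95% interval -0.98 to 0.76, limma adjusted p 0.883). Passing in the wild-type and not in vip1-1 was therefore not shown to be a difference between the strains for any of the 9 genes. Without wild-type high light replicate 2 the interactions of LHCA3 (1.73) and LHCA4 (1.22) passed (limma adjusted p 0.0310 and 0.0345), and the median over the 9 genes was 1.22, whereas without wild-type high light replicate 3 that median was 0.34.

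The make-up of the antenna transcripts was described by the share of each gene in the summed LHCA FPKM of its library, a measure that does not depend on how libraries are scaled to each other. The ranges of LHCA1, LHCA3 and LHCA4 did not overlap between the strains whichever the light level. LHCA4 took 16.3% to 20.3% of the sum in the 6 vip1-1 libraries and 9.67% to 12.2% in the 6 wild-type libraries. LHCA1 took 14.7% to 18.5% in vip1-1 and 10.6% to 13.0% in wild-type. LHCA3 took 1.23% to 2.51% in vip1-1 and 4.24% to 7.16% in wild-type. A share also falls when the other members rise. In high light the mean of LHCA3 was 222 FPKM in both strains, while the summed LHCA level averaged 10109.5 FPKM in vip1-1 and 4902 FPKM in wild-type. The shares of the other 6 genes overlapped between the strains.

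Other shares differed between the light levels. In the wild-type LHCA9 made up 0.43% ± 0.071 of the sum in high light and 4.73% ± 1.46 in control, and LHCA6 made up 4.70% ± 0.40 in high light and 7.39% ± 0.022 in control (SD, n = 3 each). The share of LHCA3 in the wild-type was 4.55% ± 0.27 in high light and 6.48% ± 0.64 in control. None of these 3 overlapped between the light levels. In vip1-1 LHCA7 was the only gene without overlap, with 10.8% ± 1.40 in high light and 16.0% ± 2.13 in control (SD, n = 3 each). LHCA9 had 0.49% ± 0.48 in vip1-1 high light and 1.57% ± 0.67 in vip1-1 control. These shares are given as descriptions without a test, and 3 libraries against 3 could not give an exact permutation p under 0.1.

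**Figure D4:**
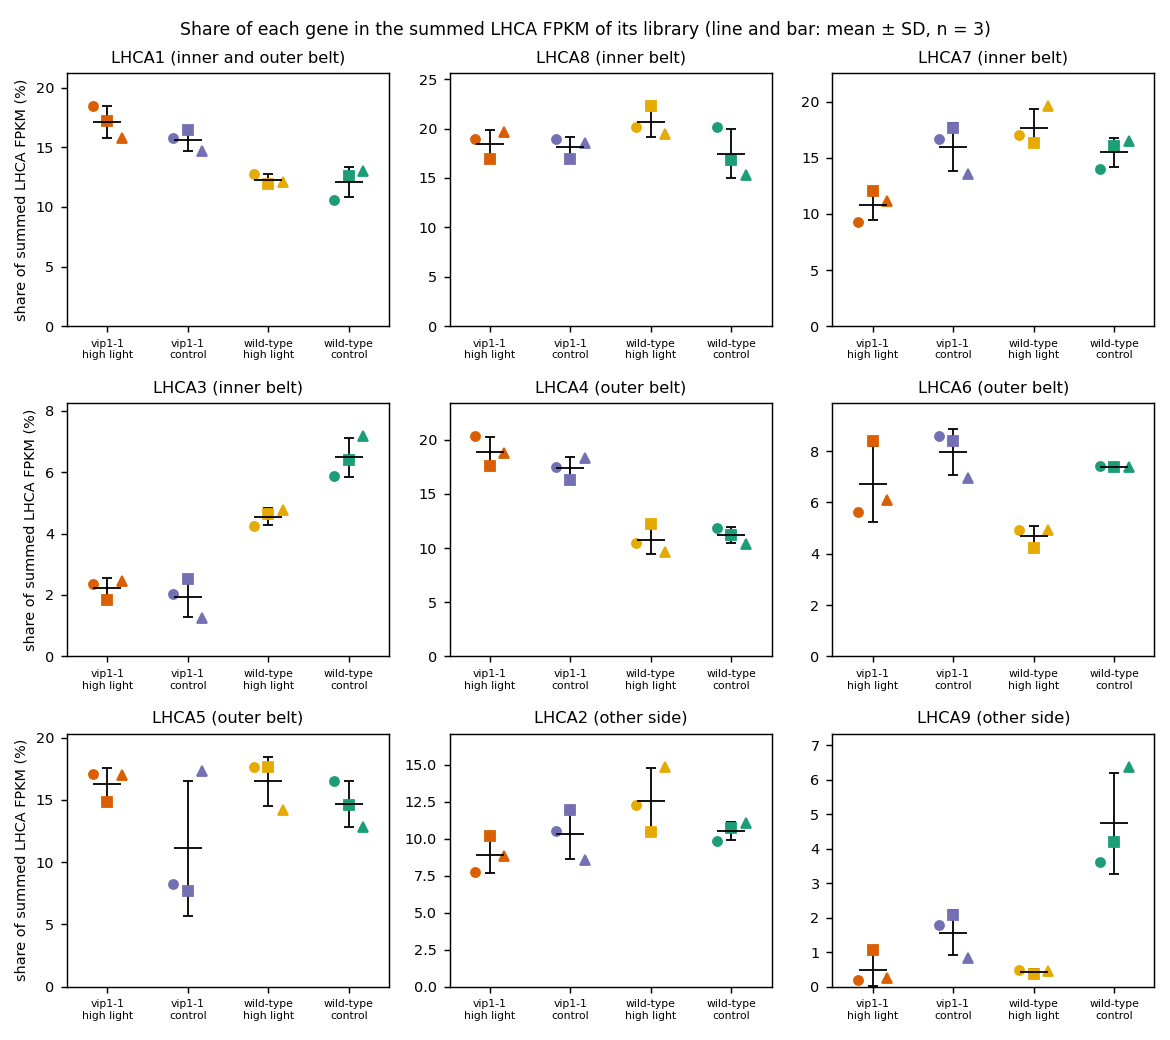
Percentage of the summed LHCA FPKM taken by each gene in every library, with groups from left to right vip1-1 high light, vip1-1 control, wild-type high light and wild-type control, points as replicates and lines with bars as mean ± SD (n = 3). The 6 vip1-1 libraries lay above the 6 wild-type libraries for LHCA1 and LHCA4 and below them for LHCA3, and the share of LHCA9 in the wild-type was 0.43% in high light and 4.73% in control.

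The members did not follow one profile equally closely. Over the 12 libraries, which share group and library effects, Pearson's r of each gene with the mean of the other 8 was 0.96 for LHCA6 and LHCA2, 0.93 for LHCA7, 0.89 for LHCA8, 0.85 for LHCA1 and 0.80 for LHCA4. It was 0.71 for LHCA9, 0.69 for LHCA5 and 0.53 for LHCA3. Among genes outside the family with a mean FPKM of at least 5, the profile most like the mean of the 9 was that of Cre07.g334550_4532.v6.1 (Pearson's r 0.993 over 12 libraries), which averaged 585 FPKM in vip1-1 high light, 1086 in vip1-1 control, 264 in wild-type high light and 806 in wild-type control. The next were Cre16.g675550_4532.v6.1, Cre12.g493950_4532.v6.1, Cre12.g554800_4532.v6.1 and Cre12.g534700_4532.v6.1, with r from 0.986 to 0.980. These identifiers carry no gene name in the sources used here.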

How the data were processed

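The deposited table gives FPKM values by gene (rows) and library (columns), as its header and name show. The submitters' processing notes name HISAT2 and StringTie without versions; the genome build and any filter are not given in the sources used here. The suffix of the gene identifiers is that of annotation release 6.1 of strain CC-4532. Columns were matched to samples by the library names in the labels. Low values (FPKM up to 0.15) showed no steps of whole reads: in 66 pairs of libraries the most common ratio, to 3 decimals, held 0.56% to 1.86% of genes. Depth is therefore unknown, no counting error can be given, and precision rests on 3 replicates. How reads shared between similar genes were counted is not given in the sources used here.

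Values were analysed as log2(FPKM + 1), on which changes of low genes are understated. A gene was tested when 3 or more of the 12 libraries had an FPKM of 1 or higher, which held for 12575 genes. The whole table and all 12 libraries entered a linear model of the 4 groups in limma 3.58.1 in R 4.3.3 (empirical Bayes with a variance trend), so groups shared one spread per gene. Tests were two-sided, with Benjamini-Hochberg adjustment over all tested genes and a threshold of 0.05. The labels call the replicates biological and do not say how they were grown, so p-values measure the spread between these samples.

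The members, lists and tests were chosen with earlier results of these data known. All 9 LHCA genes are named, ordered by the place of the protein. The most similar genes are the 5 with the highest Pearson r among genes averaging an FPKM of 5 or more. Lists of photosystem I core subunits and photosystem II antenna genes were drawn up by symbol, but 0 symbols matched the reference table, so they were not analysed here. Alternatives were a pseudocount of 0.1, other filters, median centring, quantile normalization, rescaling to a common total, no variance trend, fits of only the groups compared, leaving out each library, and a replicate block. Plots were made in Python 3.11.15 with matplotlib 3.10.9.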

Additional observations from a re-analysis of the deposited data

How the results depend on the processing

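No call of an LHCA gene changed sign under any alternative. In high light in vip1-1 the number of genes called, 2 as reported, was 4 under median centring, and 0 to 5 when single libraries were left out; the median log2 change of the 9 genes was -0.89 under median centring and -0.13 under quantile normalization. In high light in wild-type the number called, 8 as reported, was 3 under quantile normalization and 5 to 9 when single libraries were left out. Median centring gave 9, with LHCA5 added (limma adjusted p 0.0244). The median of the 9 genes was -0.56 under quantile normalization, -1.52 under median centring, and -1.40 to -0.69 when single libraries were left out. After rescaling to equal FPKM totals the median was -0.91 in wild-type and -0.33 in vip1-1. For vip1-1 against wild-type in control the number called was 3 as reported and 6 with only the groups compared. It was 1 under quantile normalization, 2 under median centring, and 0 to 5 when single libraries were left out. The median was 0.34 under quantile normalization and 0.90 under median centring, against 0.55 as reported. For vip1-1 against wild-type in high light the number called was 5 as reported and 3 with only the groups compared. It was 3 under quantile normalization, and 3 to 7 when single libraries were left out. Median centring gave 6, with LHCA2 added (limma adjusted p 0.0176). The median was 0.69 under quantile normalization, 1.33 under median centring, and 0.56 to 1.38 when single libraries were left out. The interaction, 0 as reported, gave 0 to 2 when single libraries were left out, with medians of 0.34 to 1.22. The cause was not tested. Median centring and quantile normalization brought the median of all genes close to 0 in every comparison.

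Libraries with the same replicate number did not as a rule deviate together: 4 of 18 pairs had a correlation of deviations over 0.1. The best partner had the same number in 7 of 36 cases. Correlations ran from -0.49 to 0.48 in pairs with the same number and from -0.53 to 0.48 in the 36 pairs with different numbers. Replicates 2 of vip1-1 control and vip1-1 high light reached 0.48, so whether some samples were paired cannot be told from this check. With the replicate block 4 genes were called for high light in vip1-1, LHCA2 and LHCA6 being added (limma adjusted p 0.0305 and 0.0394). For vip1-1 against wild-type in high light LHCA2 was added (0.0288) and LHCA5 lost (0.0559).

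Depth is unknown, so no limit from counting can be given.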

Other observations

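Ratios between pairs of LHCA genes within a library, chosen after their values were seen, gave the following values. The FPKM of LHCA4 was 8.66, 9.50 and 7.63 times that of LHCA3 in vip1-1 high light replicates 1, 2 and 3 and 8.68, 6.50 and 14.9 times in vip1-1 control. In wild-type high light it was 2.46, 2.63 and 2.03 times that of LHCA3, and in wild-type control 2.02, 1.76 and 1.45 times. The lowest vip1-1 ratio was thus above the highest wild-type ratio. LHCA2, whose protein pairs with that of LHCA9, had 41.0, 9.70 and 37.3 times the FPKM of LHCA9 in vip1-1 high light and 5.85, 5.73 and 10.4 times in vip1-1 control. In wild-type high light it had 24.9, 29.7 and 33.8 times the FPKM of LHCA9, and in wild-type control 2.73, 2.54 and 1.73 times. The light levels did not overlap in the wild-type, and in vip1-1 high light replicate 2 lay within the range of the control libraries. The ratio of LHCA1 to LHCA8 was also taken. It ran from 0.81 to 1.02 in vip1-1 high light, 0.79 to 0.97 in vip1-1 control, 0.53 to 0.64 in wild-type high light and 0.53 to 0.85 in wild-type control. It overlapped between the light levels in each strain and between the strains in control light. In high light the strains did not overlap, with vip1-1 higher. These ratios are given as descriptions without a test, and other pairs were not computed.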
